A study of Mus musculus with 6 samples.

Results

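The 10 genes of the mouse chromosome 11 block around Zpbp2 described here are Stard3, Pgap3, Erbb2, Mien1, Grb7, Ikzf3, Zpbp2, Psmd3, Med24 and Thra, given in their order along the chromosome. They were taken by gene symbol as the named neighbours of Zpbp2, without use of their measured values and leaving aside the sphingolipid and clock genes of the same block. The 10 were found among 41388 genes of the count table, and all 10 were among the 18660 genes that passed the filter on low counts. RNA was sequenced from whole lungs of adult mice collected at ZT7, which is 7 h after lights on in a 12h:12h light/dark cycle. The WT group was C57BL/6J with 3 libraries, and the KO group, also with 3 libraries, was B6.129S7-Zpbp2tmZuk/Mmjax, which lacks Zpbp2 exons 1 to 3 in a C57BL/6J background. Both were born and kept in the same colony, and the sources used here name no further allele or agent, nor the sex or age in weeks of each mouse. DNA of the 129S7 donor strain may still flank the deletion in KO mice, so that an effect of the deletion and an effect of flanking donor DNA on these neighbours cannot be told apart.

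The human counterparts of these genes lie side by side in a region associated with early-onset asthma and other immune diseases, where regulatory DNA near ZPBP2 is thought to act on several neighbours. Erbb2 is a receptor tyrosine kinase of the EGF receptor family, Grb7 is an adaptor that binds activated receptors such as that encoded by Erbb2, Ikzf3 is the lymphoid zinc finger factor Aiolos, and Zpbp2 encodes a sperm acrosomal protein. Mien1 encodes a small membrane-anchored protein with a thioredoxin-like fold, Pgap3 remodels the lipid of GPI anchors, Stard3 moves sterols at late endosomes, Psmd3 is a subunit of the proteasome lid, Med24 belongs to the Mediator of RNA polymerase II and Thra is a thyroid hormone receptor.

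In the KO lungs Mien1 and Grb7 were higher than in WT, by 1.45-fold and 1.42-fold, and both passed the test. Pgap3 and Erbb2 were above WT in every KO library, with fitted ratios of KO to WT of 1.29 and 1.25, and did not pass. Ikzf3 was below WT in every KO library, with a fitted ratio of 0.724, and did not pass. Zpbp2 itself was near 0 in all 6 libraries and lowest in KO. Stard3, Psmd3, Med24 and Thra had fitted differences between -0.04 and 0.16 on the log2 scale.

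Library totals ran from 59134950 to 71354388 counts. The libraries KO2 and KO3 were nearly alike: for genes with 20 to 200 counts over the pair, their median squared difference was 1.71 times what counting alone gives, where the pair WT1, WT2 had 1.86 and the pair KO1, KO2 had 3.75. For genes of 20000 counts or more the ratio was 3.33, against 50.6 and 156. KO2 and KO3 thus entered as 1 sample, giving n = 3 for WT and n = 2 for KO. WT3 and KO1 stood apart from the other 4 libraries through genes of squamous epithelium, whose 16 listed markers summed to 5039 counts per 1e6 counts (CPM) in WT3 and 9562 CPM in KO1 but to between 83.3 and 109 CPM elsewhere. The lung label was borne out by 10 of 10 alveolar type 2 markers tested, which summed to 22183 CPM or more in each library.

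The deletion takes away the 5′ part of Zpbp2, so the 250 bases of reference sequence just before its start are shown, together with those before Mien1, the gene with the highest ratio, and Erbb2, its overlapping neighbour. The sequences are from RefSeq on GRCm38.p6, 5′ to 3′ on the strand of the gene, with matches to 6 searched motifs in capitals.
Zpbp2: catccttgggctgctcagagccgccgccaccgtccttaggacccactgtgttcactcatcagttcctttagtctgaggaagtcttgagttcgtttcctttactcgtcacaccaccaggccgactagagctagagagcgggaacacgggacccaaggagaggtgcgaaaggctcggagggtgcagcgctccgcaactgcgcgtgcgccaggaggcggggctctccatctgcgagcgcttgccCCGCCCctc
Mien1: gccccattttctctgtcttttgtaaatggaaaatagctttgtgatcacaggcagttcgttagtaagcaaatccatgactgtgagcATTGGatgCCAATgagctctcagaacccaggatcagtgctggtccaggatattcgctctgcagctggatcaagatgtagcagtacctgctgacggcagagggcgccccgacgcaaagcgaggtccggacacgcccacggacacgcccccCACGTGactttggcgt
Erbb2: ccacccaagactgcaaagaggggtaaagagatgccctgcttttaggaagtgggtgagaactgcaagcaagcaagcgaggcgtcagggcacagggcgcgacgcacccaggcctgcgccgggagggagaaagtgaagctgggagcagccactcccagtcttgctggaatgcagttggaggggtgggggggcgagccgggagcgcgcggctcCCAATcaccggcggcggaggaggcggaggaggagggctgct
The window of Zpbp2 is chr11:98550847-98551096 on the plus strand, that of Mien1 is chr11:98438989-98439238 on the minus strand and that of Erbb2 is chr11:98412234-98412483 on the plus strand. How many bases of the Zpbp2 window the deletion removes was not determined here.

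Windows of 300 bases, from 250 before to 50 after the start, were found for 5 of the 10 genes, namely Stard3, Pgap3, Erbb2, Mien1 and Zpbp2. Grb7, Ikzf3, Psmd3, Med24 and Thra had none in the table. Both strands were searched for the E-box CACGTG and for the CCAAT box, spelled as its name. The GC box was searched as GGGCGG. The TATA box was searched as TATAAA. The half-site of nuclear receptors was searched as AGGTCA. The ETS-like word was ACTTCCGG. In the sequences shown no match overlapped another. Mien1 held CACGTG 16 bases before its start, a word present in 7.15% of 32851 promoter windows, and CCAAT at 165 bases (opposite strand) and 157 bases before it. Erbb2 held CCAAT 41 bases before its start, a word found in 37.4% of all windows. Zpbp2 held GGGCGG on the opposite strand 9 bases before its start, a word found in 35.7% of all windows. Zpbp2 was also rich in CpG, with 19 in its 250 bases against a median of 6 over all windows, and had 62.4% G and C against a median of 52.4%. The corresponding counts of CpG were 16 for Erbb2, 15 for Stard3, 13 for Mien1 and 9 for Pgap3. A match is a run of letters and says nothing of what binds there.

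The deleted gene was examined first. Zpbp2 (ENSMUSG00000017195) lies at chr11:98551097-98558665 on the plus strand of GRCm38, and in the annotated transcript that starts furthest upstream, of 7 exons and 1300 bp, exons 1 to 3 make up 418 bp, or 32.2%, within a stretch of 1.487 kb. Counted over the whole gene, undeleted exons included, it had 20 counts in WT1, 15 in WT2 and 7 in WT3, and 1 count in KO1 with 0 in KO2 and 0 in KO3. Every KO library was thus below every WT library, and the genotype labels held in all 6. Zpbp2 passed the filter on low counts through its WT counts alone. In CPM the WT libraries stood at 0.273, 0.213 and 0.117, with a mean of 0.201 ± 0.0789 (SD, n = 3), and a count of 0 allows up to 3 counts, or 0.0514 CPM in KO3. Over the pooled counts, 42 in WT against 1 in KO, the KO level was 0.0264 times that of WT, with an exact 95% interval of 0.000653 to 0.155 that covers counting error only. The fitted difference missed the threshold at an adjusted p of 0.0653 (edgeR's quasi-likelihood test with Benjamini-Hochberg adjustment over 18660 genes, used throughout). It passed with the squamous term, at an adjusted p of 0.0387, and without WT3 and KO1, at 0.00898. The fit without WT3 and KO1 counts the near-identical KO2 and KO3 as separate samples, which makes p too small. The same holds wherever the 6 libraries are kept separate. Because Zpbp2 is known from sperm, other sperm acrosome and zona binding genes were looked at as well. Of 14 such genes, 6 were abundant enough to be tested, 0 passed, and the most abundant, Acrbp, stood at 10.1 ± 0.126 CPM in WT and 12.0 ± 1.71 CPM in KO.

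**Figure D1:**
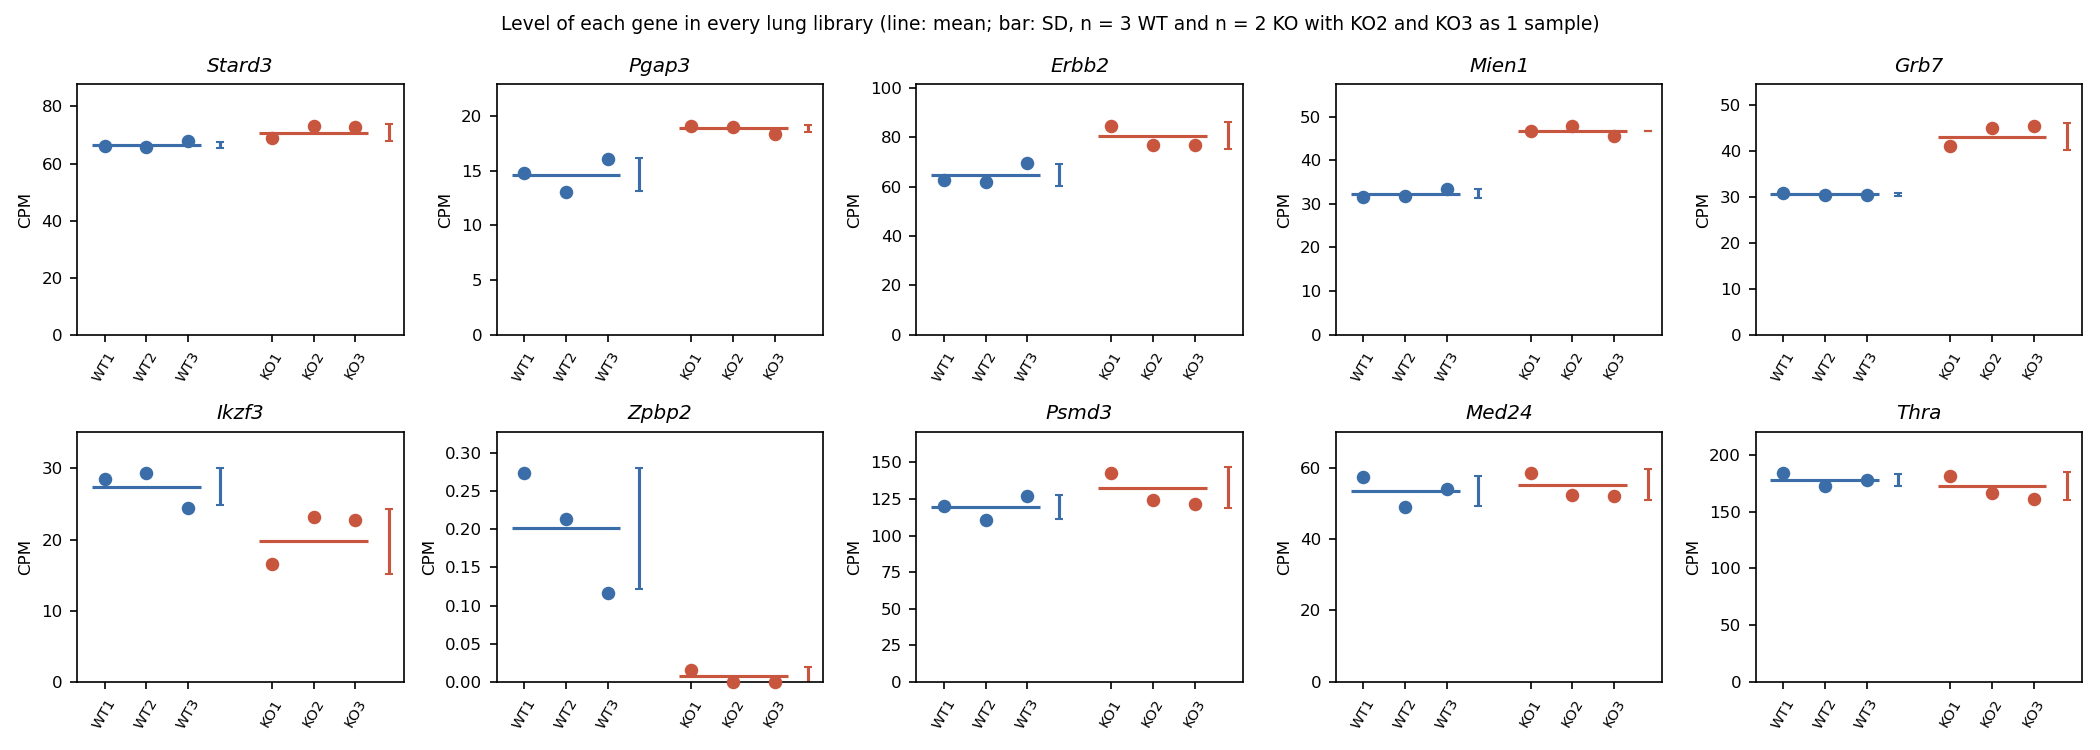
Level in CPM (vertical axes, from 0) of each of the 10 genes in the 3 WT (blue) and 3 KO (red) libraries, with lines at the group means and bars for the SD. Mien1 and Grb7 show the clearest gap between groups, Ikzf3 and Zpbp2 are lower in each KO library, and Psmd3, Med24 and Thra overlap.

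Per length of exon, the 10 genes spanned a wide range in WT lung. The level was 43.3 ± 1.34 CPM per kb for Mien1, 38.6 ± 1.15 for Thra, 24.0 ± 1.66 for Psmd3, 18.7 ± 0.288 for Stard3 and 12.4 ± 0.824 for Erbb2 (mean ± SD, n = 3). Below these came Grb7 at 9.10 ± 0.0906 CPM per kb, Med24 at 8.19 ± 0.661, Pgap3 at 4.50 ± 0.463, Ikzf3 at 3.13 ± 0.299 and Zpbp2 at 0.119 ± 0.0469. The WT libraries of any gene did not overlap those of the next gene in this order, the closest pair being Grb7, lowest at 9.02 CPM per kb, and Med24, highest at 8.80. The KO libraries gave the same order without overlap between neighbours, from 62.5 ± 0.0212 CPM per kb for Mien1 (n = 2) to 2.26 ± 0.526 for Ikzf3, with Zpbp2 last. Mien1 and Thra, next to each other in the order, were thus further apart in KO, where Thra was at 37.4 ± 2.71 CPM per kb.

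**Figure D2:**
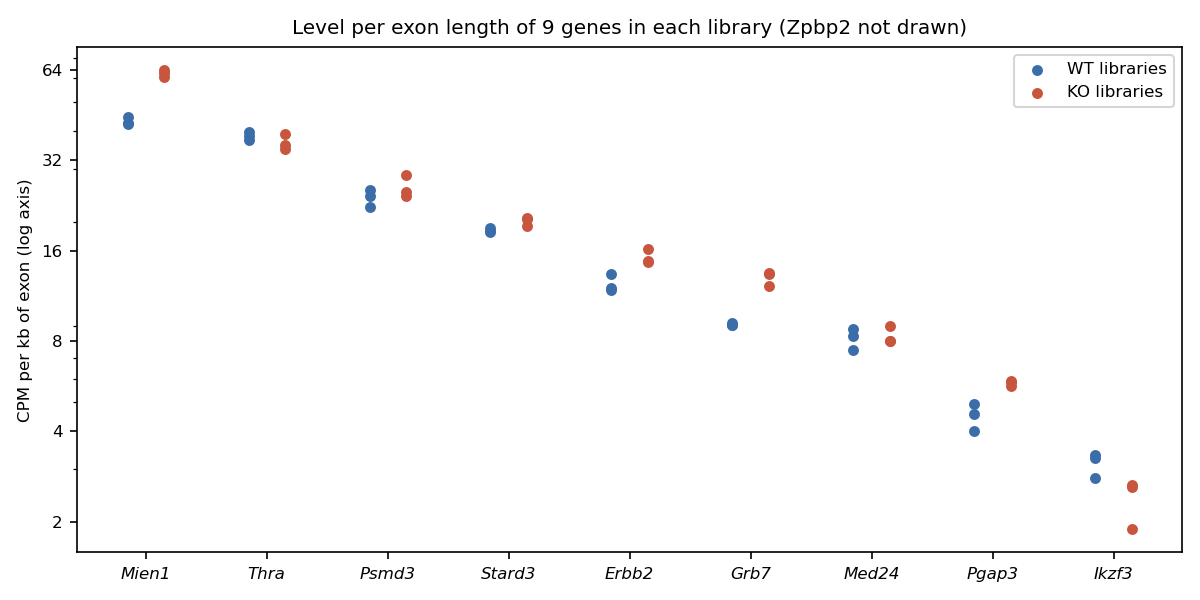
Level in CPM per kb of exon (vertical log axis) of 9 genes, ordered by their WT mean, with 1 point for each WT (blue) and KO (red) library. The order from Mien1 to Ikzf3 is the same in both groups.

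Mien1 (ENSMUSG00000002580, chr11:98437708-98438991, minus strand) was measured at 31.6 CPM in WT1, 31.9 in WT2 and 33.5 in WT3, and at 46.7 CPM in KO1, 47.8 in KO2 and 45.5 in KO3. The 3 KO libraries were close to each other and all above the highest WT library. The mean rose from 32.3 ± 0.998 CPM (n = 3) to 46.7 ± 0.0159 CPM (n = 2), a log2 fold change of 0.54 (SE 0.05, 95% interval 0.41 to 0.66) with an adjusted p of 0.0446. The KO SD is this small because the mean of KO2 and KO3, 46.6 CPM, lay next to KO1. It understates the spread of the 3 KO libraries. Mien1 and Grb7 were the 2 of 10 members that passed the test, both higher, where 2.28% of all tested genes passed, 1.38% as higher and 0.906% as lower.

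Gene length and an antisense transcript were checked for Mien1. Its exons span only 747 bp, and short genes were higher in KO over the whole table: the median log2 fold change was 0.17 among 3703 genes of 38 to 1828 bp and -0.14 among 3705 genes of 6903 bp or more. With an offset for gene length and GC content, Mien1 had a log2 fold change of 0.32 with an adjusted p of 0.433, and edgeR passed 0 genes in all, with 3357 at an unadjusted p of at most 0.05 (DESeq2 without the offset passed 3919). In addition, 281 bp of its exons, or 37.6%, overlap exons of the antisense transcript Gm12352, and the strand setting of the counting is not given in the sources used here. Gm12352 was given 30 to 127 counts per library and was highest in WT3 and KO1, but its count does not measure reads in the overlap, and the part of antisense reads in the value of Mien1 was not tested.

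Grb7 (ENSMUSG00000019312, chr11:98446394-98455373, plus strand), which starts 7.402 kb beyond Mien1, stood at 31.0 CPM in WT1, 30.4 in WT2 and 30.5 in WT3. The KO libraries had 41.1 CPM in KO1, 45.0 in KO2 and 45.4 in KO3. The groups were well apart, and the WT libraries differed little among themselves. The mean rose from 30.6 ± 0.305 CPM (n = 3) to 43.2 ± 2.93 CPM (n = 2), a log2 fold change of 0.50 (SE 0.06, 95% interval 0.34 to 0.66) with an adjusted p of 0.0446. Its exon length of 3365 bp falls in a class of 3702 genes whose median log2 fold change was 0.04. Corrected for length and GC content, Grb7 gave a log2 fold change of 0.41 and an adjusted p of 0.193.

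Both calls were lost without WT1, without WT2, without WT3 and without KO1, with adjusted p of up to 0.189, although the log2 fold change stayed between 0.51 and 0.56 for Mien1 and between 0.49 and 0.56 for Grb7. Without any 1 WT library edgeR passed 0 genes of the whole table, with 3346 to 4193 at an unadjusted p of at most 0.05. Leaving out WT3 and KO1 together, with the 4 remaining libraries each kept separate, gave a log2 fold change of 0.55 for Mien1 and 0.56 for Grb7, with adjusted p of 0.00127 and 0.00111, in a fit that passed 32.7% of genes and in which the near-identical KO2 and KO3 make p too small. KO1 over WT3, the pair with high squamous markers, gave a log2 ratio of 0.48 for Mien1 and 0.43 for Grb7, and the means of KO2 and KO3 over those of WT1 and WT2 gave 0.56 for both.

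At an unadjusted p of at most 0.05, 6 of the 10 genes stood, where 27.3% of all tested genes did, and the libraries of the groups did not overlap for 7 of the 10, where 40.8% did. Both counts include Zpbp2, whose 5′ part is deleted, and without it they were 5 and 6 of 9. Other call rules gave shares to read against the same way. DESeq2 passed 5 of the 10 genes and 22.9% of the genes to which it gave an adjusted p, the 6 libraries kept separate 4 of the 10 and 18.9%, and the squamous term 5 of the 10 and 11%. The deleted gene Zpbp2 was among the 5 with the squamous term. The replicate block passed 2 of the 10 and 6.42%, the filter of 10 counts in every library 2 and 5.54%, DESeq2 size factors 2 and 2.29%, library size alone 2 and 1.64%, and no filter 2 and 1.53%. Without KO2 the same 2 genes passed among 1.92% of all, without KO3 among 2.26%, and without KO1 neither did, with 0.0883% of all genes.

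Erbb2 (ENSMUSG00000062312, chr11:98412470-98437716, plus strand) ends 9 bp inside the 3′ end of Mien1, on the opposite strand. It was measured at 62.6 CPM in WT1, 61.8 in WT2 and 69.6 in WT3, and at 84.5 CPM in KO1, 76.9 in KO2 and 76.7 in KO3. The KO libraries were all above WT, and within each group the library with high squamous markers was the highest. The means were 64.7 ± 4.29 CPM in WT (n = 3) and 80.6 ± 5.43 CPM in KO (n = 2), a log2 fold change of 0.32 (SE 0.07, 95% interval 0.13 to 0.51) with an adjusted p of 0.0760. Erbb2 passed in the fit with a term for the squamous list, with a log2 fold change of 0.29 and an adjusted p of 0.0312, where 11% of all genes passed. It also passed with DESeq2 (0.00326), with the 6 libraries kept separate (0.0287) and without WT3 and KO1 (0.00397). Both fits that keep KO2 and KO3 separate make p too small. Erbb2 thus passed in 4 of 16 alternatives. Among those in which it did not pass were the length and GC offset (log2 fold change 0.29, adjusted p 0.118) and the fit without WT2 (adjusted p 0.240).

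Pgap3 (ENSMUSG00000038208, chr11:98388677-98400490, minus strand) starts 11.979 kb before Erbb2, the pair pointing away from each other. Its level was 14.8 CPM in WT1, 13.0 in WT2 and 16.0 in WT3, and 19.1 CPM in KO1, 19.0 in KO2 and 18.3 in KO3. The KO libraries lay close together and above the spread of WT. The log2 fold change was 0.37 (SE 0.11, 95% interval 0.10 to 0.64) with an adjusted p of 0.109. Pgap3 passed in 3 of 16 alternatives, with DESeq2 (adjusted p 0.0137), with the 6 libraries kept separate (0.0339) and without WT3 and KO1 (0.0115). Both fits that keep KO2 and KO3 separate make p too small. With the length and GC offset Pgap3 had a log2 fold change of 0.26 and an adjusted p of 0.250. The next of the listed genes beyond Pgap3, with Tcap and Pnmt between them, is Stard3 (ENSMUSG00000018167, chr11:98358368-98381112, plus strand). Stard3 stood at 66.1, 65.8 and 67.7 CPM in WT1 to WT3 and at 68.8, 73.1 and 72.7 CPM in KO1 to KO3. The groups did not overlap for Stard3 either, but the gap between WT3 and KO1 was small. Its log2 fold change was 0.09 (SE 0.05, 95% interval -0.03 to 0.22) with an adjusted p of 0.296. It was 0.02 with the length and GC offset, 0.04 with scaling by library size alone and 0.14 without WT3 and KO1. The last had an adjusted p of 0.0393, which is too small because KO2 and KO3 were kept separate.

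These 5 genes on the same side of Zpbp2, from Stard3 to Grb7, were the members for which each KO library exceeded each WT library, where 20% of all tested genes did. Their start sites lie 105 kb (Grb7) to 193 kb (Stard3) from that of Zpbp2. The sum of the 10 alveolar type 2 markers, all from the lung epithelium, was also higher in each KO library, at 31462 to 33166 CPM against 22183 to 23207 CPM in WT, and 4 of those 10 markers passed as higher. The 10 club cell markers, of the airway epithelium, likewise summed to 43369 to 57306 CPM in KO and 32525 to 37752 CPM in WT, with 10 of 10 positive, 5 above WT in every KO library and 0 that passed. The part of these shifts in the values of these 5 genes was not tested. In whole lung, more cells of a type and more RNA per cell cannot be told apart.

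Ikzf3 (ENSMUSG00000018168, chr11:98464902-98546031, minus strand) is the nearest of the 10 to Zpbp2, with start sites 5.07 kb apart and the genes pointing away from each other. It stood at 28.5 CPM in WT1, 29.3 in WT2 and 24.4 in WT3, and at 16.5 CPM in KO1, 23.2 in KO2 and 22.8 in KO3. Each KO library was below each WT library, though KO2 and WT3 were close, and the library with high squamous markers was the lowest of its group in both genotypes. The mean was 27.4 ± 2.61 CPM in WT (n = 3) and 19.8 ± 4.60 CPM in KO (n = 2), a log2 fold change of -0.47 (SE 0.17, 95% interval -0.91 to -0.03) with an unadjusted p of 0.0413 and an adjusted p of 0.167 in edgeR. Ikzf3 and Zpbp2 were the 2 members of 10 with all KO libraries below WT, where 20.7% of all tested genes were. Zpbp2 enters this count through its own deletion, which leaves Ikzf3 as the only neighbour in it. With the squamous term the log2 fold change of Ikzf3 was -0.39 and its adjusted p 0.0372, and without KO1 these were -0.26 and 0.307. It also passed with DESeq2 (0.0461) and without WT3 and KO1 (0.00563), where the separate KO2 and KO3 make p too small.

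Aiolos is known from B cells, NK cells and some T cells, and markers of these cells were measured beside it. The 10 B cell markers summed to 397, 357 and 330 CPM in WT1 to WT3 and to 292, 300 and 303 CPM in KO1 to KO3. Of these markers 6 of 10 were below WT in every KO library, where 20.7% of all tested genes were. Only 1, Pax5, was above WT in every KO library, with a log2 fold change of 0.33, and 0 passed. The 8 NK cell markers summed to 66.8 to 71.3 CPM in WT and 50.4 to 52.7 CPM in KO, with 8 of 8 below WT in every KO library. Among them Ncr1, an activating NK cell receptor, fell from 7.16 ± 0.292 CPM to 3.71 ± 0.0217 CPM and passed at an adjusted p of 0.0446. The 11 T cell markers did not move that way, summing to 58.5 to 79.1 CPM in WT and 78.9 to 82.9 CPM in KO. The part of lymphoid cell content in the value of Ikzf3 was not tested. Ikzf3 is also long, with 8754 bp of exon, in the class of 3705 genes whose median log2 fold change was -0.14, and the length and GC offset gave -0.31 with an adjusted p of 0.386.

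**Figure D3:**
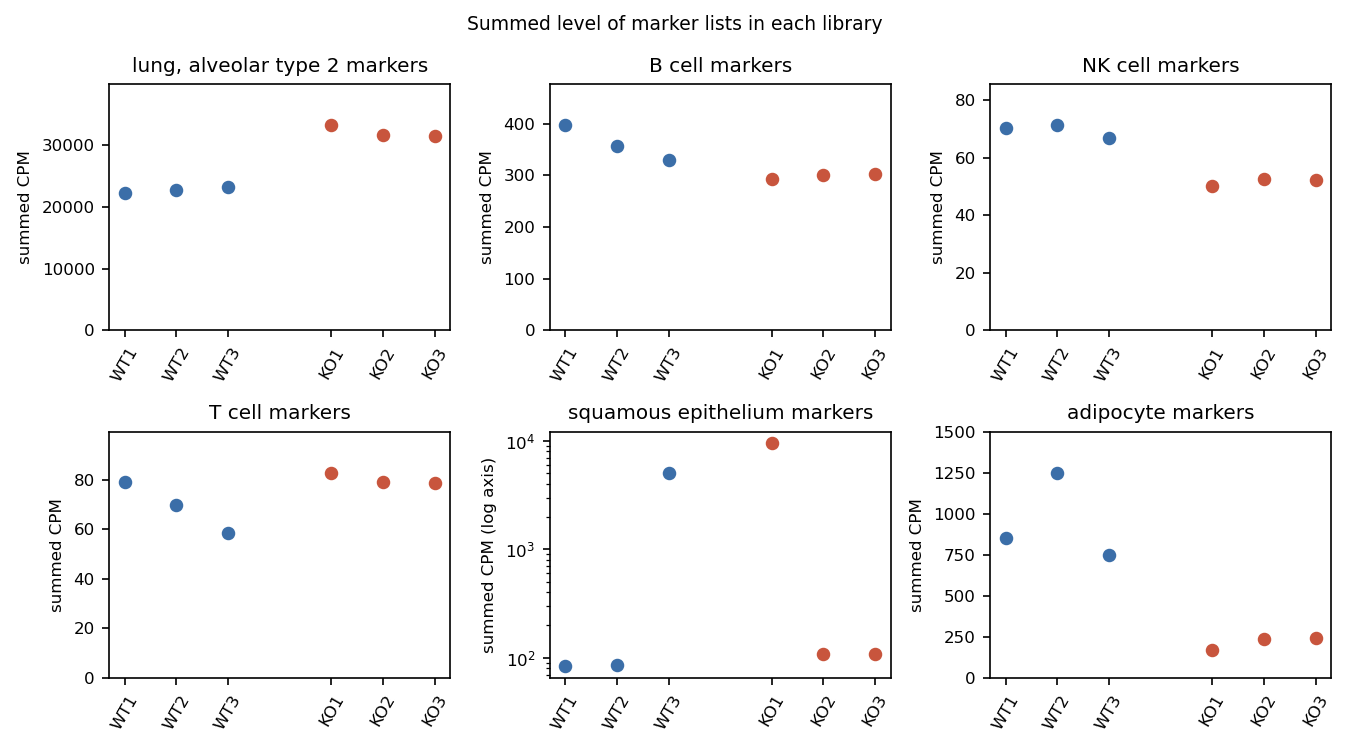
Summed level in CPM of 6 marker lists in each WT (blue) and KO (red) library, from 0 except for the squamous list, which has a log axis. Alveolar type 2 markers are higher and B cell, NK cell and adipocyte markers lower in each KO library, while the squamous list is high in WT3 and KO1.

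The 3 members on the far side of Zpbp2 begin with Psmd3 (ENSMUSG00000017221, chr11:98682554-98695979, plus strand), after a gap of 123.888 kb. Psmd3 was at 120.5, 110.7 and 127.1 CPM in WT1 to WT3 and at 142.5, 124.3 and 121.3 CPM in KO1 to KO3. The groups overlapped, with KO1 alone above the WT range. The log2 fold change was 0.16 (SE 0.09, 95% interval -0.08 to 0.39) with an adjusted p of 0.341. It was 0.04 without KO1 and 0.10 without WT2.

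Med24 (ENSMUSG00000017210, chr11:98704591-98729435, minus strand) was at 57.4, 48.9 and 54.2 CPM in WT1 to WT3 and at 58.4, 52.2 and 52.1 CPM in KO1 to KO3. These ranges overlapped widely, and the log2 fold change of 0.05 (SE 0.09, 95% interval -0.18 to 0.28) had an adjusted p of 0.757. Its sign turned in 4 of 16 alternatives, with scaling by library size alone (-0.0021) among them. Thra (ENSMUSG00000058756, chr11:98740638-98769006, plus strand) was the member with the most counts, at 184, 173 and 178 CPM in WT1 to WT3 and 181, 166 and 161 CPM in KO1 to KO3. KO1 lay within the WT range, and KO2 and KO3 lay below it. The log2 fold change was -0.04 (SE 0.07, 95% interval -0.21 to 0.12) with an adjusted p of 0.718, so that a change of the size seen for Mien1 lay outside the interval. It was -0.02 without WT1, -0.07 without WT2, -0.13 without KO1 and -0.13 with the length and GC offset, and Thra did not pass in any of the 16 alternatives. Of the exons of Thra, 263 bp or 5.70% overlap those of Nr1d1 on the opposite strand.

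**Figure D4:**
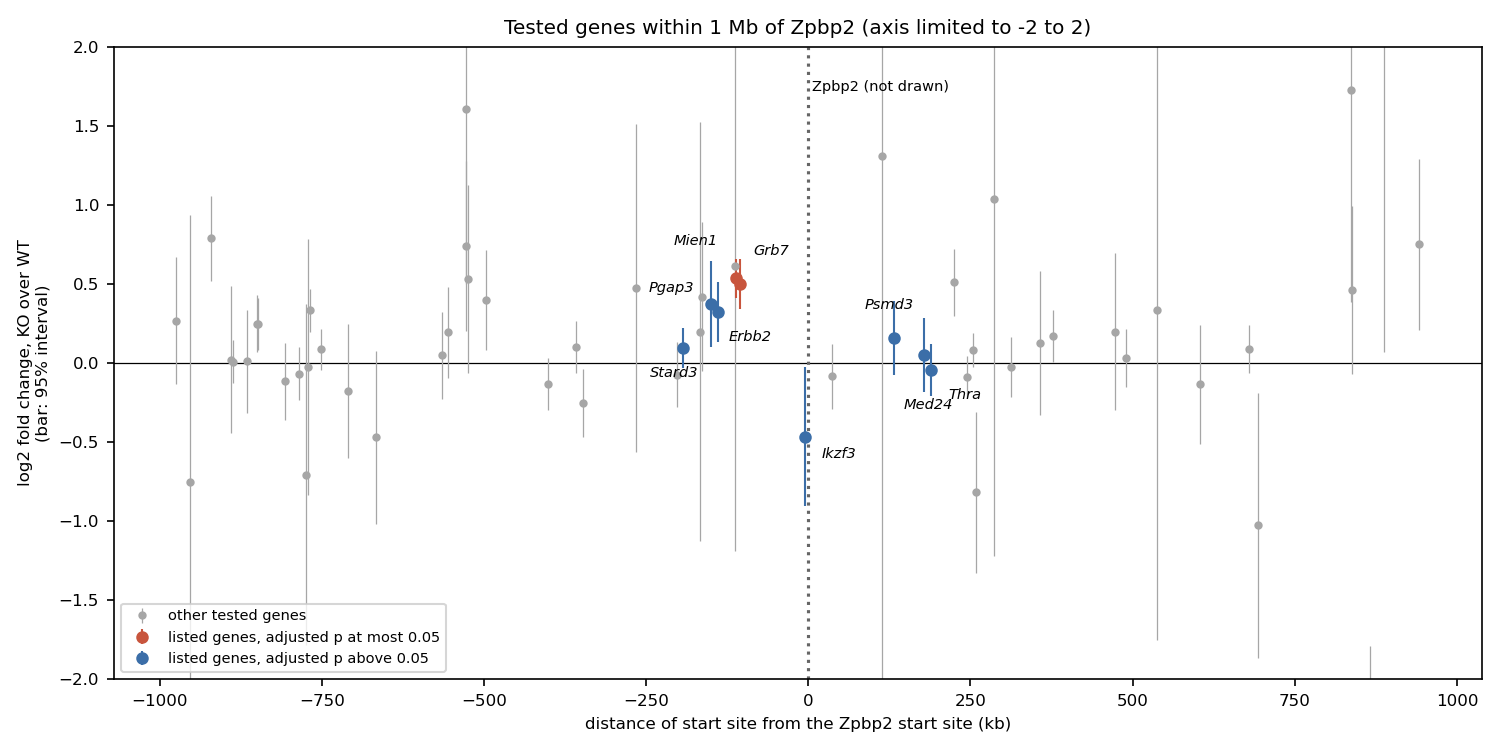
Log2 fold change of KO over WT (vertical axis, with 95% intervals) against the distance of each start site from that of Zpbp2 in kb, for the other 9 genes and for 51 further tested genes within 1 Mb, 2 of which lie beyond the axis. Mien1 and Grb7 (red) pass the test, Ikzf3 next to Zpbp2 is below 0, and the 3 genes to the right lie near 0.

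Between the start of Stard3 and the end of Nr1d1 the table holds 25 genes, of which 16 were tested. The 6 tested genes that are not among the 10 were Tcap, Pnmt, Gm12352, Ormdl3, Gsdma and Nr1d1, and 0 of them passed. Tcap, a sarcomere protein gene next to Stard3, varied more within groups than between them, from 77.0 to 143 CPM in WT and from 66.3 to 203 CPM in KO. Pnmt, the enzyme that makes adrenaline, was low, at 0.939 to 1.16 CPM in WT and 1.30 to 1.54 CPM in KO, above WT in each KO library, with a log2 fold change of 0.42 and an adjusted p of 0.223. Ormdl3, which starts 36.3 kb from Zpbp2, had a log2 fold change of -0.08 with an adjusted p of 0.555, and Nr1d1 one of 0.51 with an adjusted p of 0.0512. For Gsdma, WT3 held 1367 counts, KO1 held 2377 and no other library held more than 1. The 9 genes that were not tested, Gsdma2, Gsdma3, Csf3, Gm12, Gm12355, Gm12356, Gm25048, Gm25106 and Gm22059, had 8 counts at most in any library.

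Over 1 Mb on either side of the Zpbp2 start, 61 of 103 genes were tested and 4 passed, or 6.56%, against 2.28% of all tested genes. Of the 51 tested genes there that are not among the 10, 3.92% passed. Besides Mien1 and Grb7 these were E130012A19Rik, 921 kb away, with a log2 fold change of 0.79 and an adjusted p of 0.0448, and the antisense transcript A830036E02Rik, 866 kb away on the other side, at 1 to 3 counts per KO library and 16 to 26 per WT library. All KO libraries were above WT for 21 of the 61 genes, or 34.4%, and below for 9, or 14.8%, against 20% and 20.7% of all tested genes. Without the 10 genes these shares were 31.4% and 13.7%. The median log2 fold change of the 61 genes was 0.10, against 0.02 over all tested genes.

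Of 172 tested partners of these genes in 9 pathway lists 4 passed, or 2.33%, near the 2.28% of all tested genes. Of 25 tested ErbB receptors, ligands, adaptors and feedback genes 0 passed, 16 had positive and 9 negative values, and their median log2 fold change was 0.05. The most abundant of them were Errfi1, a feedback inhibitor of EGF receptors, at 156 ± 29.9 CPM in WT and 156 ± 20.4 CPM in KO, and the focal adhesion kinase gene Ptk2, at 130.2 ± 1.28 CPM and 136 ± 0.701 CPM. The 3 other receptors of the family, Egfr, Erbb3 and Erbb4, had log2 fold changes of -0.39, 0.04 and -1.94 with adjusted p of 0.111, 0.718 and 0.0553. Erbb4 was low, at 2.78 to 5.30 CPM in WT and 0.822 to 1.19 CPM in KO. Among 12 Ikaros family and lymphoid factors 0 passed and the median was -0.20. Ikzf1, the founding Ikaros gene, had 41.2 ± 2.35 CPM in WT and 34.7 ± 3.80 CPM in KO, with an adjusted p of 0.180, and Foxo1 had 80.0 ± 0.856 CPM and 81.9 ± 2.58 CPM.

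The proteasome partners of Psmd3 had the highest median of the 9 lists, at 0.22 against 0.02 over all tested genes. Of the 20, 18 were positive and 11 were above WT in each KO library, where 20% of all tested genes were. Psmd4 alone passed. It is a ubiquitin receptor of the regulatory particle and rose from 100.5 ± 2.57 CPM to 129 ± 5.73 CPM with an adjusted p of 0.0474. The abundant subunits Psmd2 and Psmc3 had log2 fold changes of 0.15 and 0.28 with adjusted p of 0.315 and 0.0857. Among 32 other Mediator genes, 1 passed, Med13l of the kinase module, which fell by 0.40 on the log2 scale with an adjusted p of 0.0455. The most abundant Mediator genes, Med12 and Med13 of the same module, had log2 fold changes of -0.42 and -0.55 with adjusted p of 0.0737 and 0.0511. Of the other genes of that module, Med12l was at -0.57 with an adjusted p of 0.0952, Cdk19 at -0.02, Ccnc at 0.07 and Cdk8 at 0.08. Over the 32 genes 23 were positive and the median was 0.09. Of 23 genes of thyroid hormone action 0 passed, with a median of -0.09. The corepressor gene Ncor1, whose product binds the unliganded receptor, had a log2 fold change of -0.42 with an adjusted p of 0.0528. Over the whole table the fold change fell with exon length (Spearman correlation -0.33). The values of the 9 lists given here are not corrected for length, and its part in them was not tested.

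Around Stard3, 20 genes of endosomal sterol transport and the START domain had a median of -0.03. Npc2, which carries cholesterol in the lysosome, rose from 803 ± 18.4 CPM to 1102 ± 11.6 CPM with an adjusted p of 0.0446, and Lipa, the lysosomal acid lipase, fell from 89.8 ± 2.49 CPM to 69.0 ± 3.04 CPM with an adjusted p of 0.0474. Stard9 had a log2 fold change of -0.53 with an adjusted p of 0.110. Around Pgap3, 29 genes of GPI anchor synthesis gave 0 that passed and a median of 0.05, with Pigq at 0.03 and Pigt at 0.24. Around Mien1, 5 selenoprotein genes of the thioredoxin-like fold gave 0 that passed and a median of 0.16. Their abundant members were Selenow, with a log2 fold change of 0.53 and an adjusted p of 0.0698, and Selenof, with 0.16 and 0.215.

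**Figure D5:**
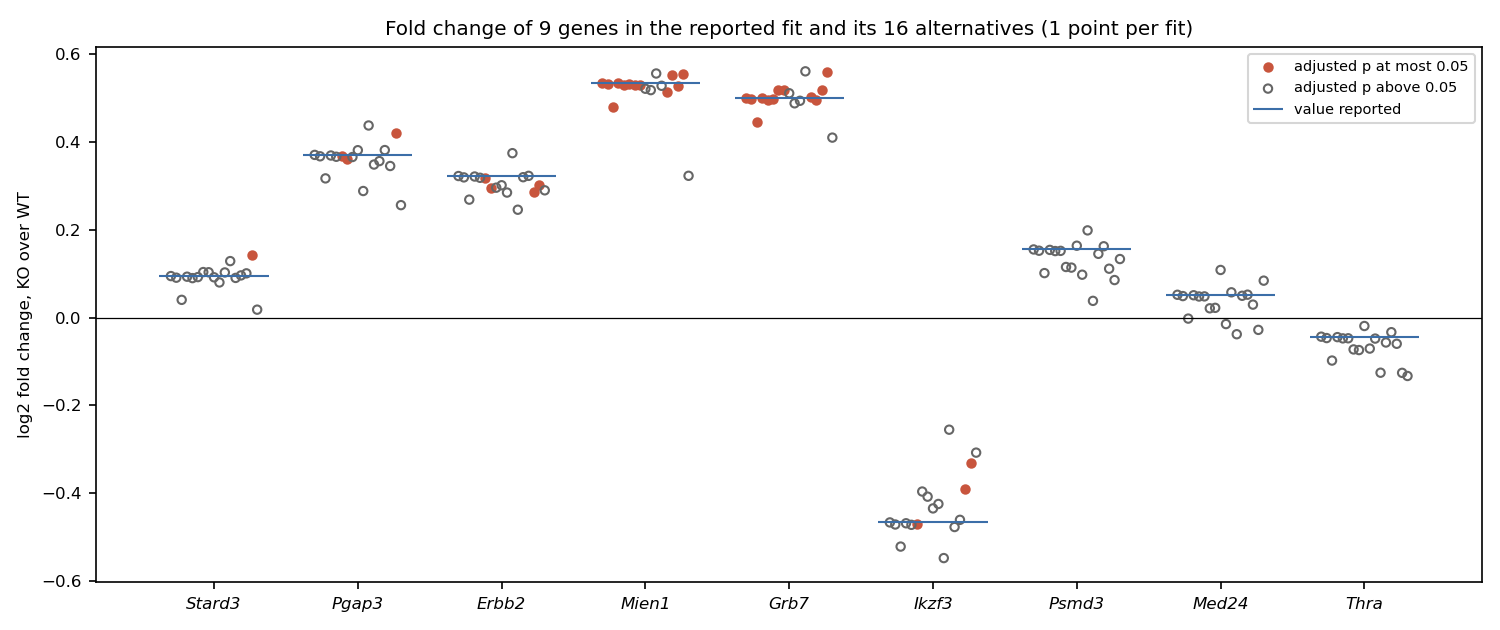
Log2 fold change of KO over WT (vertical axis) of 9 genes in the reported fit (line) and in that fit and its 16 alternatives (points), filled where the adjusted p is at most 0.05. Mien1 and Grb7 stay between 0.32 and 0.56 and pass in 11 of 16 alternatives each, Ikzf3 stays below 0, and Med24 crosses 0.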

How the data were processed

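Per the labels, total RNA was extracted from lung with Trizol and RNAeasy columns. The authors trimmed reads with Trimmomatic 0.36, aligned them to mm10 (GRCm38) with STAR 2.5.3a, processed alignments with Picard 2.9.0 and deposited raw read counts per gene from HTSeq 0.6.0. The annotation release and the strand setting are not given in the sources used here. The 10 genes and all gene and marker lists were chosen with earlier results of these data known. The 10 genes were set by symbol and by place around Zpbp2, and their measured values were not used. Counts of KO2 and KO3 were summed as 1 sample. Genes passing filterByExpr were tested two-sided, WT against KO, with TMM scaling and the quasi-likelihood test of edgeR 4.0.16 (R 4.3.3), adjusted by Benjamini-Hochberg over 18660 genes, with calls made where the adjusted p did not exceed 0.05. Group means and SD are of TMM-scaled CPM, with KO2 and KO3 averaged first. Nothing states whether mice came from separate litters, so p-values measure the spread between these samples. Exon lengths, overlaps and coordinates were taken from GENCODE release M21, which holds 97.5% of the table's gene identifiers, and promoters from RefSeq (GRCm38.p6). Total counts were 59134950 to 71354388 per library, and 3 counts corresponded to 0.0410 to 0.0514 CPM. The 16 alternatives covered scaling, filters, DESeq2 1.42.0, separate libraries, a replicate block, each library left out, a squamous term, WT1 and WT2 against KO2 and KO3, and a gene length and GC offset (mgcv 1.9.3). The fitting steps were tested on simulated data. From each pathway list the genes that passed and the 2 most abundant are named, except for an item that is not reported here, and the receptors Egfr, Erbb3 and Erbb4 and the Mediator genes Med12l, Cdk8, Ccnc and Cdk19 were added after their values were seen. Besides the lists described, markers of alveolar type 1, club, ciliated, endothelial and plasma cells, macrophages, adipocytes and cardiomyocytes were measured.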

Additional observations from a re-analysis of the deposited data

How the results depend on the processing

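With 3 WT and 2 KO samples, 426 genes passed. A filter of 10 counts in every library gave 937. The number was 3919 with DESeq2, 3402 with the 6 libraries kept separate, 2048 with the squamous term, 5985 with WT1 and WT2 against KO2 and KO3 and 0 with the gene length and GC offset, and 0 to 418 when 1 library was left out. Of the 10 genes, 2 passed, against 5 with DESeq2 and with the squamous term, 4 with separate libraries, 7 with the 4 libraries and 0 with the offset, and 0 to 2 when 1 library was left out. The deleted gene Zpbp2 was among the 5 with the squamous term and the 7 with the 4 libraries. Of the 9 pathway lists 4 genes passed, against 7 without the filter, 22 with the filter of 10 counts, 60 with DESeq2, 55 with separate libraries, 38 with the squamous term, 71 with the 4 libraries, 0 with the offset and 0 to 6 with 1 library left out. Replicate numbers are shared by WT and KO. Over all tested genes, the deviations of same-numbered libraries from their group means correlated at -0.665, 0.691 and -0.777. Those of WT3 and KO1, the libraries with high squamous markers, correlated at 0.845. Such a shared difference could hide a pairing, so this check cannot decide whether the numbers pair the mice. With the replicate block 1157 genes passed, among them 23 of the lists and Mien1 (0.53, adjusted p 0.0374) and Grb7 (0.52, adjusted p 0.0388).

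The log2 fold change of Mien1 was 0.32 with the offset and 0.51 to 0.56 with 1 library left out, and that of Grb7 was 0.41 and 0.49 to 0.56. Med24 turned sign with library size alone (-0.0021), without WT2 or without KO1 (range over the left-out libraries -0.038 to 0.109) and with the 4 libraries (-0.028), and the cause was not tested. With library size alone 117 of 306 calls were higher, against 257 of 426, while the median of all genes moved from 0.02 to -0.04. Zpbp2 fell below the filter in 5 alternatives and had no adjusted p in DESeq2. With KO1 left out, the lone KO sample is assumed to vary like the WT samples. Depth limits Zpbp2, whereas the other 9 genes had 917 to 13452 counts per library.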

Other observations

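Markers of cell types not described above were measured as well. The 10 adipocyte markers summed to 753 to 1253 CPM in WT and 169 to 242 CPM in KO, with 4 that fell in the test. The 10 cardiomyocyte markers summed to 2584 to 7355 CPM in WT and 1361 to 1537 CPM in KO, with 0 that passed. Of 10 alveolar type 1 markers 3 passed as higher, but 5 were positive and 5 negative and the median log2 fold change was 0.01. Of 10 ciliated cell markers 1 passed as higher, with 8 positive, and of 8 plasma cell markers 1 did, with 8 positive. Among 10 macrophage markers Mrc1, the mannose receptor, fell from 53.1 ± 4.37 CPM to 35.9 ± 0.578 CPM with an adjusted p of 0.0474 in edgeR. Of 10 endothelial markers 0 passed, with 6 positive and 4 negative. Of the 16 squamous markers 0 passed, though 16 were positive with a median of 1.28: their sum was far higher in WT3 and KO1 than in the other libraries, and within each of these sets it was higher in KO.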
